A study of Homo sapiens with 18 samples.

Results

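The MAP kinase phosphatases DUSP1, DUSP4, DUSP5, DUSP6, DUSP8, DUSP10 and DUSP16 and the feedback inhibitors SPRY2, SPRY4 and SPRED1 were followed across 18 one-colour Agilent arrays of A549 cells, an established human lung adenocarcinoma line. Their probes were all non-control probes that the scanner files name for one of these 10 genes, 17 of the 41000 probes on the array, and all 17 were among the 28665 probes, of 21233 genes, that passed the filter on low signals. The arrays formed 6 groups, each with 3 biological replicates that carry the letters A to C. Ludox silica nanoparticles (NPs) of 9 nm (SM30) or 18 nm (AS30) were given for 2 h in medium without serum, at a dose that the methods state as 0.02 mg/mL. The cells then recovered in medium with 10% serum for 3 h (SM30 and AS30) or for 22 h (AS30), and each treated group had its own controls, which went through the same steps without NPs. The RNA came from whole cultures, in which fewer cells of a kind and less RNA per cell cannot be told apart.

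MAP kinases are switched on by phosphorylation of a threonine and a tyrosine in their activation loop, and MAP kinase phosphatases remove both phosphates. Genes of this family are transcribed in response to the very signals they end, so that their RNA forms part of a negative feedback. DUSP1, DUSP4 and DUSP5 are nuclear and inducible, DUSP6 is cytoplasmic and prefers ERK, and DUSP8, DUSP10 and DUSP16 act mainly on the stress kinases JNK and p38. Sprouty and Spred proteins act further upstream, between growth factor receptors, RAS and RAF.

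At 3 h, 5 of the 10 genes were higher after SM30 NPs and 4 were higher after AS30 NPs, while none was lower. After SM30 NPs the stress kinase phosphatases DUSP10, DUSP8 and DUSP16 and the ERK phosphatase DUSP5 differed by more than 1 log2 unit each. With a normexp background correction, whose offset of 50 raises dim signals, DUSP10 differed by 0.72 and DUSP8 by 0.93. These were below DUSP16 with 1.16 and DUSP5 with 1.19. Against controls, DUSP10 was 8.35-fold higher after SM30 NPs (95% interval 6.26 to 11.1). After AS30 NPs it was at least 2.47-fold higher with the background subtraction of the scanner software. With normexp the AS30 difference of DUSP10 was smaller and did not pass the threshold. At 22 h after AS30 NPs none of the 10 was past the threshold. The threshold was an adjusted p of 0.05 in limma, fitted to the log2 ratios of treated over same-letter control arrays and adjusted over all probes tested. Of all probes, 4.35% were called higher and 3.13% lower after SM30 NPs, 1.5% and 1.01% after AS30 NPs at 3 h, and 2.54% and 1.04% at 22 h. Each gene is described by its brightest probe, and the other probes are given beside it. Signals are log2 values after quantile normalization, and levels were compared between arrays for 1 probe at a time.

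Keratins and other genes of this epithelial line were well above background on every array, in 7 of 7 markers, whereas the leukocyte marker PTPRC, 2 of 3 endothelial markers and 3 of 5 fibroblast markers were so on none. Of 7 markers of alveolar type II cells 4 were well above background on every array, while SFTPB was so on 1. The leukocyte markers CD3E and CD14 were well above background on all 18 arrays and ITGAM on 16, and the fibroblast marker COL1A1 on 15. Their part in the results was not tested. The share of spots well above background ran from 69.0% to 72.4% with SM30 NPs against 65.5% to 69.9% in their controls, from 62.5% to 67.1% with AS30 NPs at 3 h against 52.4% to 61.9%, and from 56.9% to 67.0% at 22 h against 51.9% to 58.4%. Every AS30 array at 3 h had more spots well above background than every one of its controls, and these treated and control arrays shared no slide. The SM30 array A lay on 1 slide with all 3 of its controls, and arrays B and C on another. All 3 AS30 arrays at 22 h lay on 1 slide with their control C, and controls A and B lay on other slides. The AS30 arrays at 3 h lay on a different slide from those at 22 h. Slide and recovery time of the AS30 arrays therefore changed together. Between the SM30 and AS30 control groups at 3 h, 26.8% of probes were called different, and each NP was therefore read against its own controls. Replicate B of AS30 at 22 h was the lowest of its group for 9 of the 9 genes measured on all 3 arrays, and replicate C of the AS30 controls at 3 h for 8 of 10. The part of these differences between arrays in the results was not tested.

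The promoters of the genes that were called give the sequence context of the responses. RefSeq promoter entries on GRCh38.p14 exist for 8 of the 10 genes in the table used, and not for DUSP4 and DUSP5. The 250 bases before the start site are shown for DUSP10 (with both of its starts), DUSP16, DUSP8 and DUSP1, 5′ to 3′ on the minus strand, which is the strand of all 4 genes. Capitals mark the cAMP response element (CRE) TGACGTCA or its shorter core TGACG, the AP-1 element TGANTCA, the TATA box TATAAA and the GC box GGGCGG, searched on both strands. A full CRE also counts as a match to the core on each strand.
DUSP10 chr1:221742090-221742339: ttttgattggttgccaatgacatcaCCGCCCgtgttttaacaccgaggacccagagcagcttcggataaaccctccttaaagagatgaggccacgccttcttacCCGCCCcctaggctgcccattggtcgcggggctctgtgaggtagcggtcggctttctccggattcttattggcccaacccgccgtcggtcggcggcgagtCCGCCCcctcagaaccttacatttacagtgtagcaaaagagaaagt
DUSP10 chr1:221736901-221737150: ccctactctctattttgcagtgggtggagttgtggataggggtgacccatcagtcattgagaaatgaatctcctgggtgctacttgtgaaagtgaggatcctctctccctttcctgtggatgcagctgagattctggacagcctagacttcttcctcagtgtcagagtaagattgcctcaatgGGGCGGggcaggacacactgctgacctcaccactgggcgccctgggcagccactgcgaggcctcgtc
DUSP16 chr12:12562864-12563113: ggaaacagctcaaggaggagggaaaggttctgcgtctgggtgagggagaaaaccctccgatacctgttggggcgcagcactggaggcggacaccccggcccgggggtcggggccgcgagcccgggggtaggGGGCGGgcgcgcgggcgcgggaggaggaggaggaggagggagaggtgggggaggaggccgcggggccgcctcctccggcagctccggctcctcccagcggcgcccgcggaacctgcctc
DUSP8 chr11:1572272-1572521: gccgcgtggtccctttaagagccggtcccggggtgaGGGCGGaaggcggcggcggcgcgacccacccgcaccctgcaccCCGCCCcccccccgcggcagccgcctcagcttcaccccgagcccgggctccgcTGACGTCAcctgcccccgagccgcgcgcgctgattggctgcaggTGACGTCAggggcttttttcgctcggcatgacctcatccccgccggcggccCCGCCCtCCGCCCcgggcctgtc
DUSP1 chr5:172771196-172771445: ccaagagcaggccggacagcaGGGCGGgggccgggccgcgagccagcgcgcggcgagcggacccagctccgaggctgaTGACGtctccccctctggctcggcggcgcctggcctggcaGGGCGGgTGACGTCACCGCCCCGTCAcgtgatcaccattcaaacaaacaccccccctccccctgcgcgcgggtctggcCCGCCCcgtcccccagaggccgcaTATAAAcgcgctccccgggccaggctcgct

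DUSP8 held 2 full CREs, with their first bases at -118 and -74 from the start site, and DUSP1 held 1, with its first base at -125. Of 35116 promoter windows of this length 1.65% held a full CRE. The core TGACG had 4 matches in each of these promoters, where a full CRE matches it once on each strand. All 4 in DUSP8 lay within its full CREs, and DUSP1 held the core outside its CRE at -172 and -111. The core was in 1 place in the SPRY4 window and in 1 of the 3 SPRY2 windows, and in 21.2% of all windows. The windows of DUSP10 and DUSP16 held neither form, and the AP-1 element (6.57% of all windows) was in none of the windows of the 8 genes. A TATA box began at -30 in DUSP1 and in no other window of the 8 genes, against 10.7% of all windows. GC boxes were found in the windows of DUSP1 and DUSP8 (4 each), of DUSP16, SPRY4 and SPRED1 (1 each), of both DUSP10 starts (3 and 1) and of 1 of the 3 SPRY2 windows (2), not in that of DUSP6, and in 42.6% of all windows. The CArG box and the kappaB element, searched by name, were found in none of the windows of the 8 genes, and in 1.16% and 5.21% of all. The matches are a description of the letters in these windows.

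DUSP10, also called MKP5, is a phosphatase of JNK and p38. Its log2 signals were 7.83, 8.24 and 7.88 in the SM30 replicates A, B and C against 5.12, 5.09 and 4.55 in their controls. With AS30 NPs they were 7.17, 6.82 and 6.34 at 3 h against 4.90, 4.53 and 4.57. Neither pair of groups overlapped. Every treated array lay well over its controls, and control C of SM30 and all 3 controls of AS30 were not well above background. The difference on the log2 scale was 3.06 after SM30 NPs (SE 0.17, adjusted p = 0.00095), rank 35 from the top among 28664 probes. After AS30 NPs it was 2.11 (SE 0.17, adjusted p = 0.0076). With dim controls only a limit was measured, of at least 2.47-fold under the background subtraction of the scanner software. At 22 h the AS30 replicates A and C gave 6.08 and 6.05 and the controls B and C 5.16 and 5.11, with the third array of each group not measured, and the difference of 0.94 rested on the pair C alone (SE 0.30, adjusted p = 0.13).

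On hg18, the build of the scanner files, this probe lies at chr1:219941801-219941860, and a second DUSP10 probe at chr1:219942396-219942455 was also higher after SM30 NPs. It gave 7.60, 7.76 and 7.68 against 4.78, 4.89 and 5.17, a difference of 2.73 (SE 0.31, adjusted p = 0.0070). With AS30 NPs at 3 h it gave 7.46, 6.98 and 6.36, while only control B was measured, at 4.35. The difference of 2.64 (SE 0.54, adjusted p = 0.059) therefore came from 1 pair, and the limit set by the background was at least 2.75-fold. At 22 h the difference of this probe was 0.63 (adjusted p = 0.28), against controls that were not well above background. On the slide that held SM30 array A and its 3 controls, the difference of the first probe was 2.91. A normexp background correction with an offset of 50 raises dim signals and so shrinks their ratios. With it the difference of the first probe was 0.72 (adjusted p = 0.0043) after SM30 NPs and 0.34 (adjusted p = 0.074) after AS30 NPs. The size of the DUSP10 response therefore depends on the correction. With dim spots kept, adjusted p was 0.088 and 0.22. With slide as a fixed block the SM30 difference rests on array A alone against its 3 controls. The AS30 difference of this probe at 3 h cannot be estimated in that setting. Only control A of AS30 at 22 h shares a slide with the AS30 controls at 3 h, and there the first probe was not measured.

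**Figure D1:**
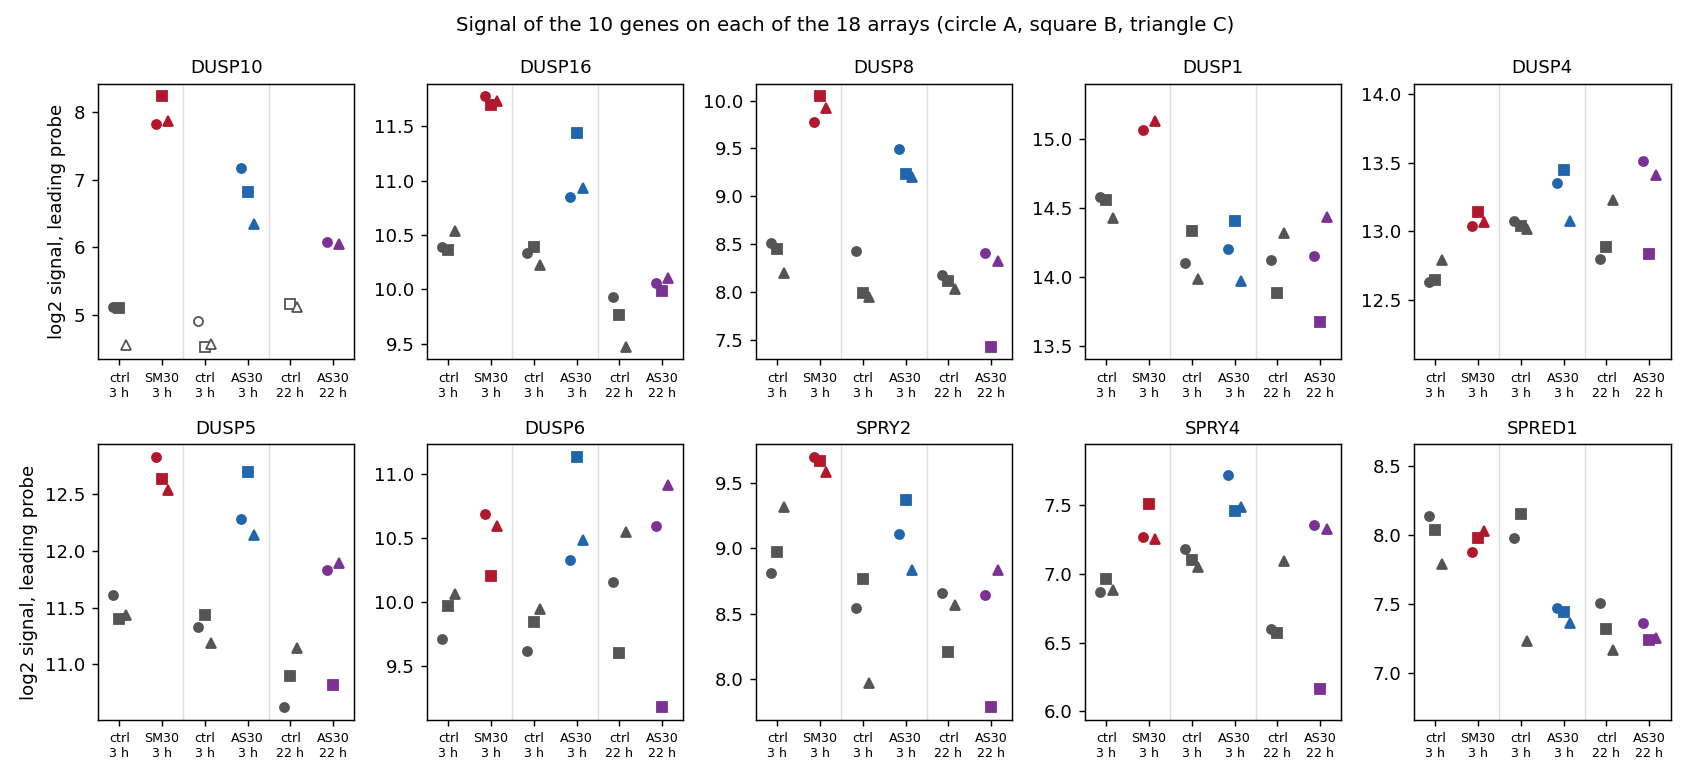
Log2 signal of the brightest probe of each of the 10 genes on each array, for SM30 at 3 h (red), AS30 at 3 h (blue) and AS30 at 22 h (purple), each beside its own controls (grey); circles, squares and triangles are replicates A, B and C, and open symbols were not well above background. All 3 SM30 arrays of DUSP10 lie between 7.83 and 8.24, over controls at 4.55 to 5.12, and the purple square of replicate B is the lowest of its group in every panel that shows it.

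DUSP16, also called MKP7, is a JNK and p38 phosphatase that shuttles between nucleus and cytoplasm. Its brightest probe gave 11.78, 11.70 and 11.73 with SM30 NPs against 10.39, 10.36 and 10.54. With AS30 NPs at 3 h it gave 10.85, 11.44 and 10.93 against 10.34, 10.39 and 10.23. The treated arrays stood above the controls in both cases, and the SM30 replicates lay within a narrow range. The differences were 1.31 (SE 0.14, adjusted p = 0.0028) and 0.75 (SE 0.14, adjusted p = 0.040). At 22 h the AS30 arrays gave 10.06, 9.98 and 10.11 against 9.93, 9.76 and 9.47, again without overlap, and the difference of 0.33 did not pass the threshold (SE 0.14, adjusted p = 0.22).

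The brightest probe lies at chr12:12518513-12518572 on hg18, and 3 other DUSP16 probes lie within chr12:12518811-12521779. In order of brightness their differences after SM30 NPs were 1.51 (adjusted p = 0.0073), 1.65 (adjusted p = 0.021) and 0.79 (adjusted p = 0.13). After AS30 NPs at 3 h they were 1.26 (adjusted p = 0.030), 1.37 (adjusted p = 0.062) and 1.06 (adjusted p = 0.088), the last against controls that were not well above background, with a limit of at least 1.49-fold. At 22 h they were 0.70 (adjusted p = 0.11), 1.23 (adjusted p = 0.071) and 0.55 (adjusted p = 0.38). None passed the threshold. For the probes with 0.70 and 1.23 all treated arrays at 22 h lay above all controls. The probe with 1.23 had 1 control well above background at 22 h, and the dimmest probe had none. Over the 18 arrays the 3 brighter probes correlated with each other at r = 0.68 to 0.92, values that share the same arrays and groups. The SM30 call of the brightest probe held in 20 of 20 alternatives of the processing, with a difference between 1.16 and 1.36 and an adjusted p of at most 0.036. In the alternative with slide as a fixed block the SM30 difference rests on array A alone against its controls. No other gene called after SM30 NPs passed in every alternative run. After AS30 NPs at 3 h the call of DUSP16 held in 12 of 20.

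DUSP8, a phosphatase of JNK and p38 known from brain and heart, gave 9.78, 10.05 and 9.92 with SM30 NPs against 8.51, 8.45 and 8.19. With AS30 NPs at 3 h it gave 9.497, 9.23 and 9.20 against 8.42, 7.99 and 7.95. At 22 h it gave 8.40, 7.43 and 8.32 against 8.18, 8.12 and 8.03. The groups were apart at 3 h for both NPs and overlapped at 22 h, where replicate B fell below all controls. The difference was 1.53 after SM30 NPs (SE 0.19, adjusted p = 0.0047), 1.19 after AS30 NPs at 3 h (SE 0.19, adjusted p = 0.026) and -0.06 at 22 h (SE 0.19, adjusted p = 0.90).

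The probes of DUSP8 disagreed. On hg18 the brightest probe lies at chr11:1534094-1534153 and a second at chr11:1534083-1534142, so that the pair shares most of its bases, and the second gave 1.56 (adjusted p = 0.015), 1.21 (adjusted p = 0.058) and -0.03. The third probe, at chr11:1535717-1535970, gave -0.13 (SE 0.20, adjusted p = 0.74), 0.39 (adjusted p = 0.27) and -0.10. Over the same 18 arrays the overlapping probes correlated at r = 0.95, while the third correlated with them at -0.19 and -0.27. The call of DUSP8 therefore rests on the overlapping pair. It held in 19 of 20 alternatives after SM30 NPs, with an adjusted p of 0.074 with slide as a fixed block, and in 13 of 20 after AS30 NPs at 3 h.

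**Figure D2:**
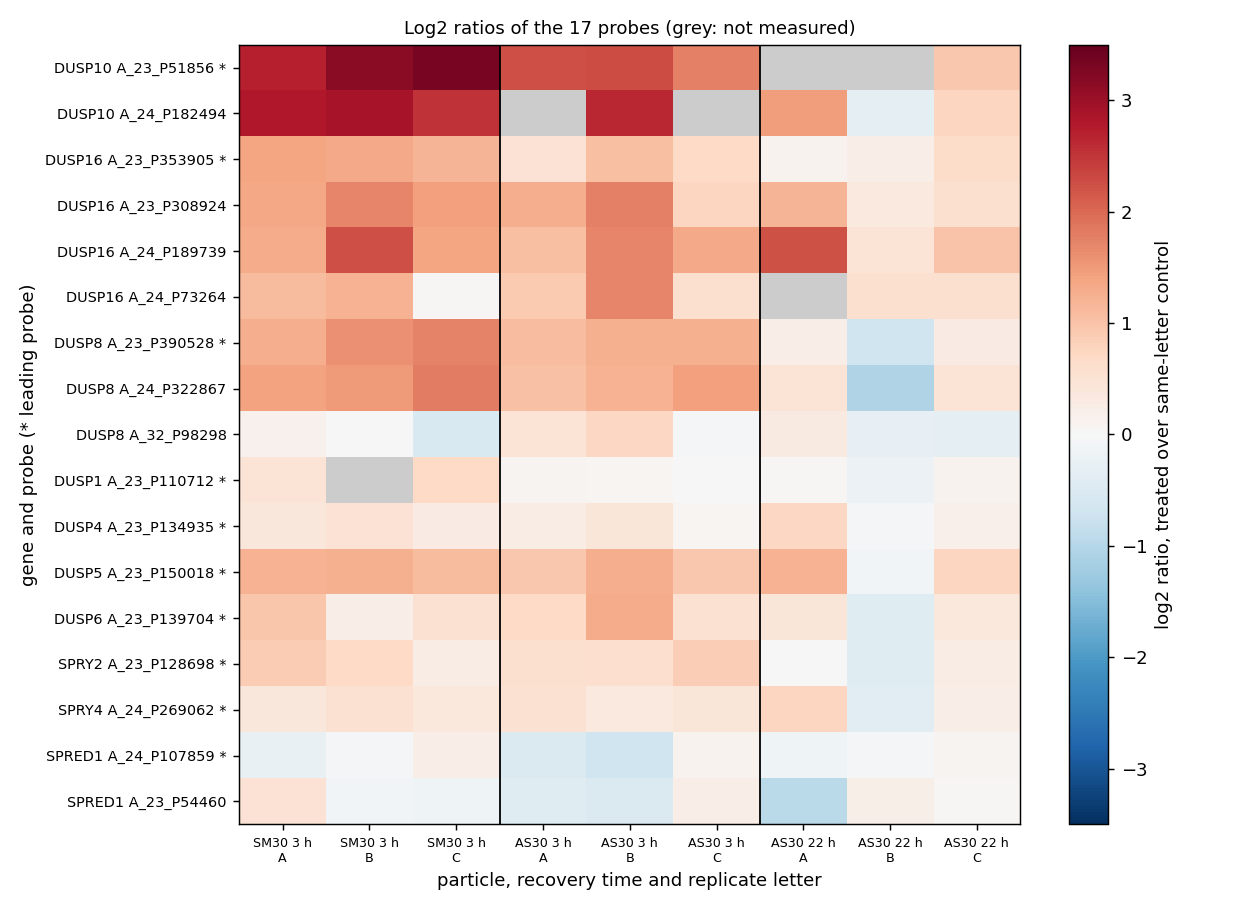
Log2 ratio of treated over same-letter control for each of the 17 probes (rows, the brightest probe of each gene with an asterisk) in the 9 pairs of arrays (columns); red is higher and blue lower in treated cells, and grey cells were not measured. The DUSP10, DUSP16 and DUSP5 rows are above 0 in all measured pairs at 3 h, as are those of DUSP4, DUSP6, SPRY2 and SPRY4. The third DUSP8 probe (A_32_P98298) does not follow the other DUSP8 rows, which are also above 0 in these pairs.

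DUSP5, a nuclear phosphatase selective for ERK, gave 12.83, 12.63 and 12.53 with SM30 NPs against 11.61, 11.39 and 11.44. With AS30 NPs at 3 h it gave 12.29, 12.70 and 12.14 against 11.33, 11.43 and 11.19. Both treated groups lay above their controls by about 1 log2 unit without overlap. The differences were 1.19 (SE 0.21, adjusted p = 0.017) and 1.06 (SE 0.21, adjusted p = 0.045). At 22 h replicates A and C of AS30 were at 11.83 and 11.89 and replicate B at 10.81, against controls at 10.62, 10.89 and 11.14, and the difference was 0.63 (SE 0.21, adjusted p = 0.13). Without the ratio of pair B at 22 h the difference was 0.98 (adjusted p = 0.023). Leaving out a treated array in these fits also drops its same-letter control. The SM30 call was lost when any of the 3 SM30 arrays was left out and with slide as a fixed block, with adjusted p up to 0.11, and the AS30 call at 3 h held in 11 of 20 alternatives.

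DUSP1, an immediate-early gene, encodes a nuclear phosphatase of p38, JNK and ERK, and its call after SM30 NPs depended on the setting. Replicates A and C gave 15.07 and 15.13 against 14.58, 14.56 and 14.43 in the controls, and the spot of replicate B was left out because the scanner software marked it as an outlier. The difference of 0.60 (SE 0.14, adjusted p = 0.048) fell to 0.44 (adjusted p = 0.084) with that spot kept, and 4 of 20 alternatives kept the call. With AS30 NPs the difference was 0.05 at 3 h (adjusted p = 0.81) and -0.02 at 22 h (adjusted p = 0.94). DUSP4, its close relative in the nucleus, gave 13.04, 13.14 and 13.06 with SM30 NPs against 12.64, 12.65 and 12.79. These groups did not overlap, but the difference of 0.39 did not pass (SE 0.15, adjusted p = 0.16), nor did 0.25 and 0.28 with AS30 NPs.

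DUSP6, the cytoplasmic ERK phosphatase that is often read as a sign of ERK activity, gave 10.69, 10.20 and 10.59 with SM30 NPs against 9.71, 9.97 and 10.06. With AS30 NPs at 3 h it gave 10.32, 11.13 and 10.48 against 9.62, 9.84 and 9.94. Treated arrays were above controls in both, but the replicates spread widely, and neither 0.58 (SE 0.22, adjusted p = 0.15) nor 0.84 (SE 0.22, adjusted p = 0.081) passed. At 22 h the difference was 0.13 (adjusted p = 0.77), with replicate B at 9.18 and replicates A and C at 10.59 and 10.91.

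SPRY2, an inhibitor of signalling from growth factor receptors to RAS, came close to the threshold at 3 h. It gave 9.70, 9.67 and 9.59 with SM30 NPs against 8.81, 8.97 and 9.31, and 9.11, 9.37 and 8.83 with AS30 NPs against 8.54, 8.77 and 7.97. Both treated groups were above their controls. The differences were 0.62 (SE 0.17, adjusted p = 0.059) and 0.67 (SE 0.17, adjusted p = 0.070), and the first passed in 4 of 20 alternatives. At 22 h SPRY2 differed by -0.06 (adjusted p = 0.88). SPRY4, which blocks the same route, gave 7.26, 7.504 and 7.26 with SM30 NPs against 6.87, 6.96 and 6.88, and 7.72, 7.46 and 7.49 with AS30 NPs at 3 h against 7.18, 7.10 and 7.05. These groups did not overlap either, and the difference of 0.44 with each NP did not pass (adjusted p = 0.20). SPRED1, a membrane-bound inhibitor of RAS and RAF that works with neurofibromin, overlapped with its controls in all 3 comparisons. It differed by -0.03 after SM30 NPs (adjusted p = 0.94) and by -0.36 after AS30 NPs (SE 0.17, adjusted p = 0.23). Without the ratio of pair C of AS30 at 3 h the latter was -0.61 (adjusted p = 0.048). In that pair control C gave 7.23, beside 7.98 and 8.15 in controls A and B. The AS30 array C gave 7.36, beside 7.47 and 7.44 in arrays A and B. The other SPRED1 probe gave 0.09 and -0.24 at 3 h, and -0.23 at 22 h against controls not well above background. None of these passed the threshold.

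**Figure D3:**
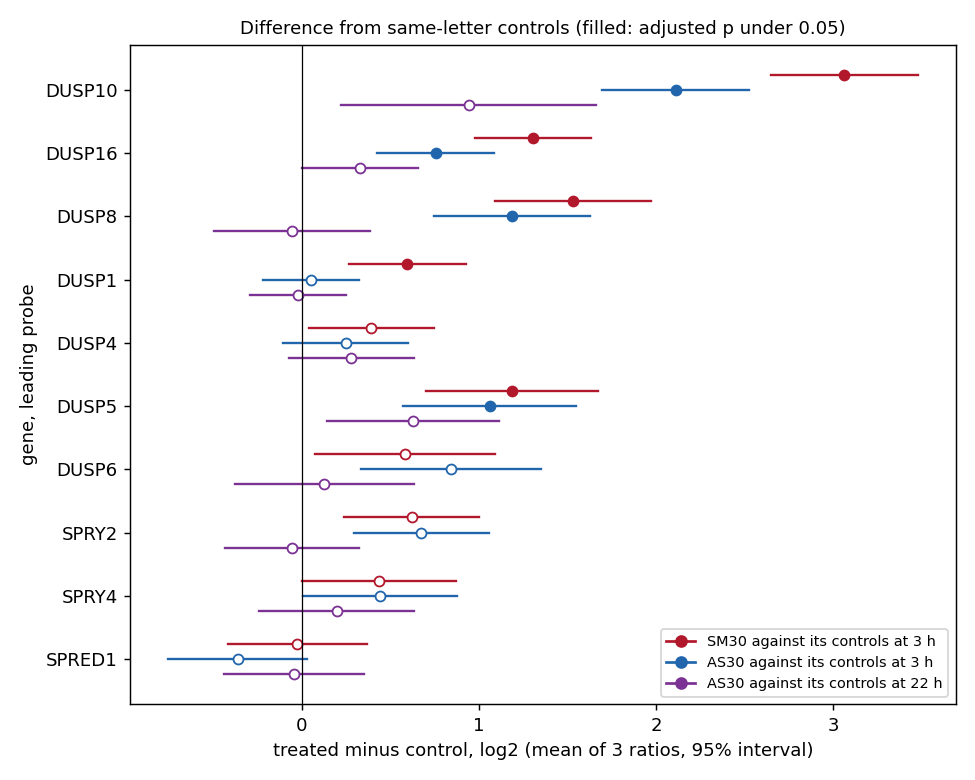
Difference from same-letter controls on the log2 scale for the brightest probe of each gene (points with 95% intervals from limma) after SM30 NPs at 3 h (red), AS30 NPs at 3 h (blue) and AS30 NPs at 22 h (purple); filled points passed an adjusted p of 0.05. DUSP10 stands farthest to the right at 3.06 and 2.11, the latter against controls not well above background, and all 3 points of SPRED1 lie below 0.

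Counted together, 5 of 10 genes and 9 of 17 probes were called higher after SM30 NPs, beside 4.35% of all probes, and 4 of 10 genes and 5 of 17 probes after AS30 NPs at 3 h, beside 1.5%. The median difference of the 10 genes was 0.61 and 0.71, against -0.05 and 0.01 over all probes. All 3 treated arrays lay above all 3 controls in 8 of the 9 genes measured on all 6 arrays after SM30 NPs, and 19.2% of all probes did so. They did so in 7 of 10 genes after AS30 NPs at 3 h, beside 13.2%, and in 1 of 9 at 22 h (DUSP16), beside 12.8%. The genes were chosen with earlier results of these arrays known, and probes of 1 gene share their transcript, so these counts describe the genes and are no test of them.

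**Figure D4:**
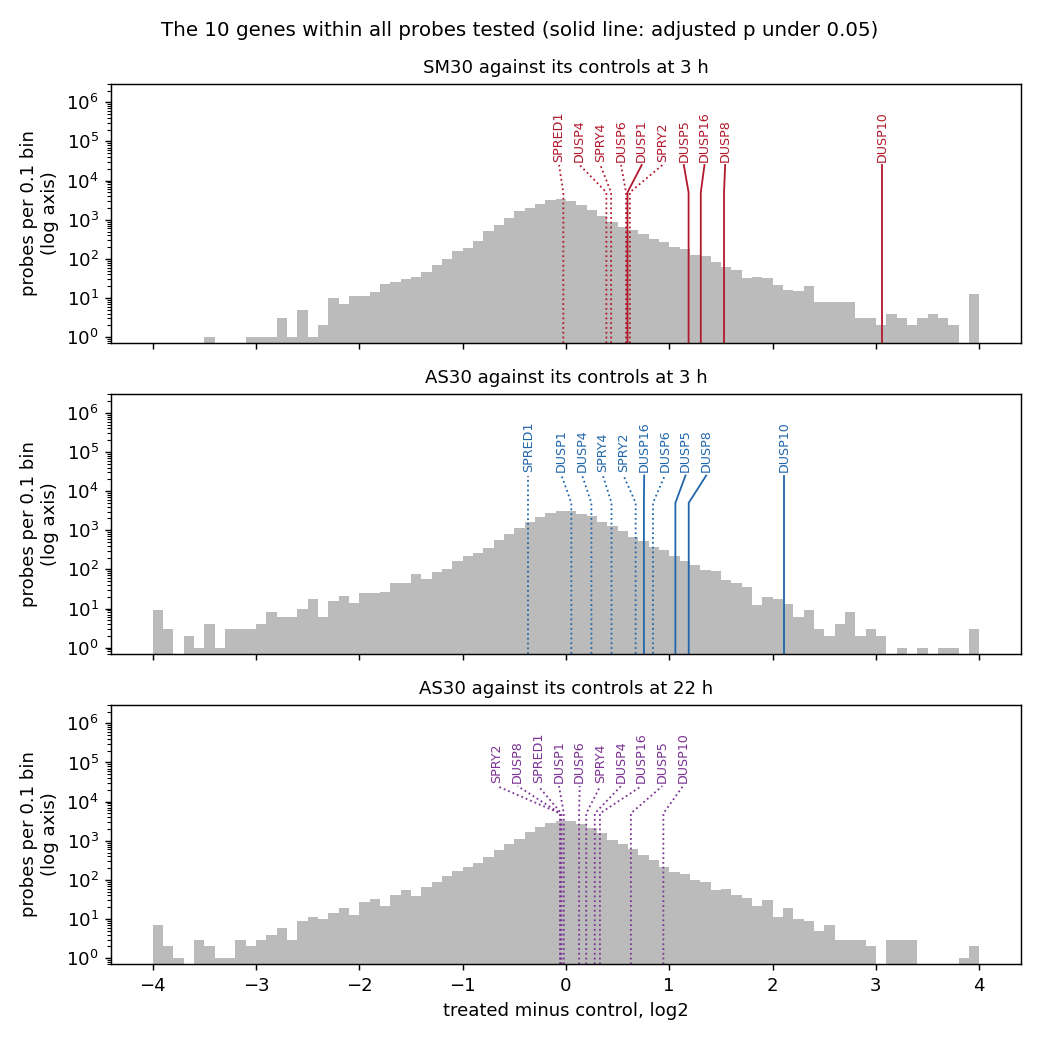
Number of probes (log axis) by log2 difference from controls in bins of 0.1, for each of the 3 treated groups, with the 10 genes marked by lines (solid where the adjusted p was under 0.05) and differences beyond 4 drawn at 4. In both panels for 3 h 9 of the 10 lines stand right of 0, beside 43.7% (SM30) and 51.4% (AS30) of all probes. In the panel for 22 h the lines lie near the centre, with a median of 0.16.

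Whether the responses to the NPs of different size differed was tested as the difference of ratios at 3 h. None of the 10 genes passed, beside 0.014% of all probes. An unadjusted p under 0.05 was found for 3 of the 10, and for 4176 of all 28595 probes. For DUSP10, with dim AS30 controls, the difference of ratios has no measured size, and its adjusted p was 0.24. SM30 minus AS30 was 0.55 for DUSP16 (95% interval 0.09 to 1.01, adjusted p = 0.29) and 0.54 for DUSP1 (0.12 to 0.97, adjusted p = 0.28). For DUSP5 it was 0.13 (-0.56 to 0.82) and for DUSP8 0.34 (-0.28 to 0.96), intervals that reach from below 0 to more than 0.80 log2 units. For SPRY2, SPRY4 and DUSP6 it was -0.06, -0.00396 and -0.26.

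The AS30 ratios at 22 h were lower than at 3 h in 8 of the 10 genes, while 51.0% of all probes had a higher ratio at 22 h. None of these changes passed the threshold, beside 0.0285% of all probes. Replicate B at 22 h was the lowest of its group for 9 of 9 genes. The ratios of pair B were -0.69 for DUSP8, -0.42 for DUSP6 and -0.08 for DUSP5, below those of pairs A and C. For DUSP16 the ratio of pair B was 0.22, between the other pairs. The part of replicate B was not tested. An unadjusted p under 0.05 was found for 3 of the 10, and for 4735 of all 28086 probes. DUSP8 changed by -1.24 (95% interval -1.87 to -0.62, adjusted p = 0.12), SPRY2 by -0.73 (adjusted p = 0.20) and DUSP6 by -0.71 (adjusted p = 0.30). The change of DUSP10 has no measured size, since its controls were not well above background at either time and its ratio at 22 h came from 1 pair (adjusted p = 0.20). With slide as a random block the change of DUSP8 passed (adjusted p = 0.047). In that fit the slide correlation was negative, at -0.084, and 319 of all probes were called, against 8 in the main fit. DUSP5 and DUSP16 changed by -0.43 each (adjusted p = 0.52 and 0.33). An F-test over the 3 classes of ratios called none of the 10 in limma, beside 0.0855% of all probes. An unadjusted p under 0.05 was found for 5 of the 10, and for 5405 of all 28085 probes.

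The levels of the genes in untreated cells were compared as well. Between 3 h and 22 h of recovery none of the 10 passed in the AS30 controls, beside 1.3% of all probes. An unadjusted p under 0.05 was found for 2 of the 10, and for 4210 of all 28179 probes. Of the probes called there 38.8% were higher at 22 h, and 27.7% with 75th percentile scaling. DUSP16 came closest, at -0.60 (SE 0.15, adjusted p = 0.065). It passed without replicate C of the controls at 3 h (-0.64, adjusted p = 0.042), without replicate A at 22 h (-0.70, adjusted p = 0.043) and with slide as a random block (adjusted p = 0.044). The slide correlation in the last of these fits was negative, at -0.084. SPRED1 also passed without that replicate C, at -0.74 (adjusted p = 0.0089). Between the SM30 and AS30 controls at 3 h no brightest probe passed and 3 of the 17 probes did, beside 26.8% of all. An unadjusted p under 0.05 was found for 2 of the 10 brightest probes, and for 11203 of all 28620 probes. The called probes were the second SPRED1 probe, with -1.17 in the AS30 controls (adjusted p = 0.0078), the third DUSP8 probe, with 0.54 (adjusted p = 0.042), and the dimmest DUSP16 probe, which was not well above background on the AS30 control arrays.

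The kinases that these phosphatases act on, and their upstream activators, were counted module by module. These and the following lists were chosen with earlier results of these data known. Of all probes, 1.5% were called higher and 1.01% lower after AS30 NPs at 3 h, and 2.54% and 1.04% at 22 h. Of the 11 genes of the ERK module none was called after AS30 NPs at 3 h. At 22 h only MAPK3, which encodes ERK1, passed, at 0.52 (adjusted p = 0.046). Among 5 measured genes of the JNK module MAP3K1, an upstream kinase, was called lower after AS30 NPs at 3 h on arrays where it was not well above background, and MAP2K7, which activates JNK, was lower at 22 h, at -1.02 (adjusted p = 0.018). In the p38 and ERK5 modules, of 7 and 4 genes, limma called none in the 3 comparisons. The medians of the 4 modules lay between -0.0070 and 0.26 after SM30 NPs and between -0.05 and 0.23 after AS30 NPs at 3 h.

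Of 8 transcripts that follow ERK signalling 2 were called higher after SM30 NPs, beside 4.35% of all probes. They were IER3, a stress-inducible survival gene, at 0.94 (adjusted p = 0.021), and PHLDA1, at 0.61 (adjusted p = 0.031). ETV4 and ETV5, transcription factors induced by ERK, differed by -0.13 and -0.02. After AS30 NPs at 3 h only cyclin D1 (CCND1) was called, and it was lower, at -0.62 (adjusted p = 0.045). Among 8 other brakes on receptors and RAS, RASA2, a GTPase activating protein of RAS, was higher after SM30 NPs by 2.32 (SE 0.38, adjusted p = 0.011), and the ubiquitin ligases CBL and CBLB by 0.70 (adjusted p = 0.014) and 0.92 (adjusted p = 0.036). After AS30 NPs at 3 h the feedback inhibitor of EGFR, ERRFI1, was the only called gene of this list, at 0.65 (adjusted p = 0.049).

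Closer relatives of the 10 genes were measured as well. Of the phosphatases DUSP2, DUSP7 and DUSP9 none was called after SM30 NPs, where DUSP2 and DUSP9 differed by 0.32 and -0.40, and DUSP7 was lower after AS30 NPs at 3 h, at -0.93 (adjusted p = 0.045). SPRY3 was higher after AS30 NPs at 3 h, at 0.72 (adjusted p = 0.048), and differed by -0.22 after SM30 NPs (adjusted p = 0.36). SPRY1 and SPRED2 were called in none of the 3 comparisons.

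**Figure D5:**
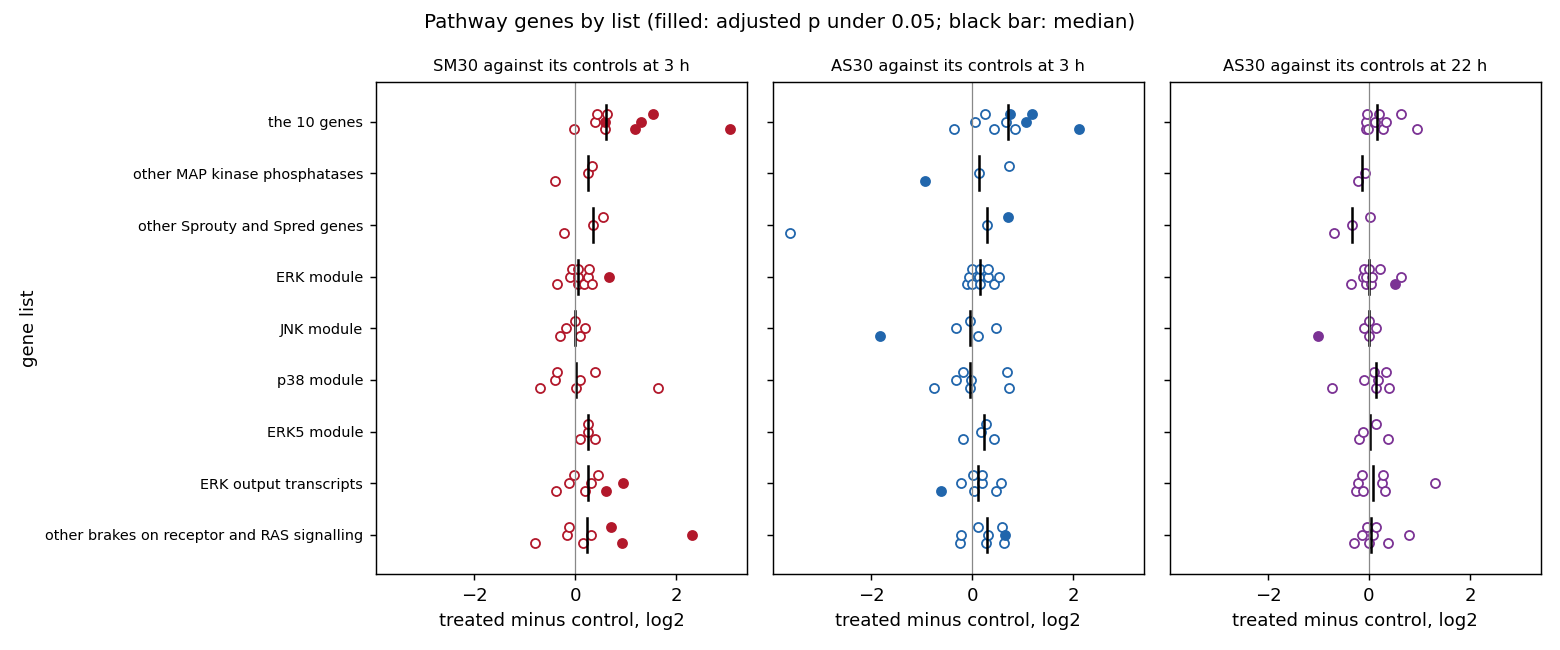
Log2 difference from controls for the 10 genes and for the genes of each pathway list (points, filled where the adjusted p was under 0.05; black bars are medians) in the 3 treated groups. The median of the 10 genes is 0.61 after SM30 NPs and 0.71 after AS30 NPs at 3 h, and those of the other lists lie between -0.05 and 0.35 in these panels.

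Across the 18 arrays DUSP5, DUSP8 and DUSP16 had the most similar profiles among the genes measured on all of them. The correlation was 0.90 for DUSP8 with DUSP16 and with DUSP5, and 0.89 for DUSP5 with DUSP16. DUSP6 correlated with DUSP16 at 0.43, and SPRED1 with DUSP4 at -0.42. The points share groups, slides and normalization, so the values describe the pattern of the groups. Among 17193 genes measured on all 18 arrays, the profile most like DUSP16 was that of B3GNT5 (r = 0.99), followed by that of ELL2 among named genes (r = 0.97). For DUSP5 they were PNPLA8, UGCG and YPEL2 (all r = 0.96), for DUSP8 CAPRIN2 (r = 0.96), FST and MXD1 (both r = 0.95), for DUSP6 ZFP36 (r = 0.89), HERPUD1 (r = 0.87) and PPP1R15A (r = 0.85), and for SPRY2 C9orf72 (r = 0.94). SERINC3 came first for DUSP4 (r = 0.91), TIGD3 for SPRY4 (r = 0.91) and ZIC5 for SPRED1 (r = 0.95).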

How the data were processed

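The authors hybridised RNA of A549 cells to one-colour Agilent arrays and deposited the scanner output, in which the intensity of each spot was background-subtracted by Agilent Feature Extraction (10.5.1.1, per the submitters' processing notes), with a table of quantile-normalized intensities that was used here as an alternative. Each array holds 45015 spots, and the number of arrays limits the precision. From the scanner output, log2 processed intensities without control spots were quantile-normalized over the 18 arrays. Spots not significantly above background and outlier spots were set to missing, spots of 1 probe were averaged, and probes with over 33% missing values were removed, leaving 28665 of 41000. The methods divide each treated array by its corresponding control, so the 9 log2 ratios of same-letter arrays were fitted as 3 classes in limma (3.58.1, R 4.3.3) with Benjamini-Hochberg adjustment over all probes. Control groups were compared in a limma fit of the 18 arrays as 6 groups. With 3 arrays against 3, an exact permutation test cannot go below 0.1 and was not used.

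The letters were not shown to pair arrays, since same-letter deviations from the group means correlated above 0.1 in 4 of 9 pairs. A group with no array well above background gave only a bound, taken on each array from the dimmest probe that was well above background or, if higher, the probe itself. These bounds hold for the background subtraction of the scanner software and carry no interval. All probes of the 10 genes were reported, and each gene is represented by the probe with the highest mean signal. Of the pathway lists, called genes were named, up to 3 per comparison by adjusted p, and for likeness the 3 genes with the highest r. Some results of the gene lists are not reported here. The genes and lists were chosen with earlier results of these data known, and DUSP10 also stands on a list that the study drew from these arrays. The fit was tested on simulated data with independent noise, which held no slide or array effects. Promoter sequences came from RefSeq (GRCh38.p14).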

Additional observations from a re-analysis of the deposited data

How the results depend on the processing

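After SM30 NPs 5 of the 10 genes were called, and 3 with dim spots kept, 2 with slide as a fixed block (DUSP10 and DUSP16) and 3 to 6 with 1 treated replicate left out. With slide as a fixed block the SM30 differences rest on array A alone, because arrays B and C have a slide to themselves. A treated replicate was left out as its ratio, so that its same-letter control was dropped with it. Leaving out SM30 replicate A, B or C kept DUSP8, DUSP10 and DUSP16. After AS30 NPs at 3 h 4 were called, and 0 with dim spots kept, 0 with slide as a fixed block, 0 with each class fitted alone and 1 to 5 with 1 replicate left out. With slide as a fixed block the AS30 difference of DUSP10 at 3 h could not be estimated, because the control array that links the slides was not measured. DUSP10 alone remained without SM30 replicate A or B or AS30 replicate A or B, and DUSP8 and DUSP10 without SM30 replicate C. At 22 h 0 were called, and 0 to 1 with 1 replicate left out (DUSP5 without replicate B). The change of the AS30 ratio from 3 h to 22 h gave 0, and 1 with slide as a random block. The F-test gave 0, and 1 with normexp and 0 to 1 with 1 replicate left out. The controls at 22 h against 3 h gave 0, and 1 with slide as a random block and 0 to 2 with 1 replicate left out. No called difference changed its sign under these alternatives. Causes were not tested. Leaving out replicates leaves fewer degrees of freedom, and the fits with slide use the 18 arrays in place of the 9 ratios.

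Without the replicate block, as 6 groups, 4, 4 and 0 genes were called in the 3 treated comparisons. With the letter as a replicate block the control comparisons gave 0 and 0. Over all probes, 2146 were called after SM30 NPs, and 1292 with dim spots kept, 335 with slide as a fixed block and 289 without SM30 replicate B. After AS30 NPs at 3 h 720 were called, and 274, 123 and 0 with dim spots kept, slide fixed and each class alone. There were 1313 without the replicate block, 3956 with slide as a random block (correlation -0.084), 81 without the ratio of AS30 pair B and 3060 without that of pair C. In pair C the control had 52.4% of spots well above background, beside 61.7% and 61.9% in controls A and B. The AS30 array of pair C had 62.5%, beside 67.1% and 63.2%. The part of either array was not tested. At 22 h 1008 were called, and 508, 325 and 0 under the same 3 settings, 1931 with slide as a random block and 2 without replicate A. The differences of ratios called 4 (SM30 minus AS30) and 8 probes (22 h minus 3 h), and 14 and 69 without the replicate block. Signals close to the background gave only a bound for DUSP10 after AS30 NPs at 3 h and none at 22 h.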
